A study of Xenopus laevis with 18 samples.

Results

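Late cleavage of the frog embryo was compared with the start of development in poly(A)+ RNA of Xenopus laevis (J strain, whole embryos, untreated), the African clawed frog. The late cleavage libraries were those of Nieuwkoop-Faber stages 6.5, 7 and 8, and they were set against the libraries of stages 0 and 2, so 5 of the 18 libraries of the series enter. Each stage was sampled by 1 library, and nothing in the labels says whether the embryos came from 1 clutch or several. Gene models with at least 5 TPM (transcripts per 1000000, a share of all transcripts) in at least 2 of the 5 libraries were used, which left 14517 of the 31357 models of the deposited table. A model counted as consistently changed when each late cleavage library lay above, or each lay below, both libraries of stages 0 and 2, and the means of log2(TPM + 1) differed by at least 1. By this rule 4285 models were higher in late cleavage and 376 were lower. The models carry the authors' identifiers, of which 0 matched the reference table of names, so no gene is named, no function is given and no sequence is shown.

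The egg enters development with a store of maternal mRNA and little or no transcription. The embryo relies on that store until its own genome becomes broadly active at the mid-blastula transition. Stored mRNAs are controlled largely through the poly(A) tail: cytoplasmic polyadenylation lengthens the tails of some and favours their translation, while others lose their tails after maturation or fertilization. Libraries made from RNA captured on oligo(dT) beads register tail length as well as RNA amount, and these cannot be told apart in the values. Stage 0 lies before the fertilized egg in the Nieuwkoop-Faber table, and stage 2 is the 2-cell embryo. Stages 6.5 and 7 are a morula and an early blastula of large cells, while stage 8 is by that table a mid-blastula stage, at the end of the cleavage period. With 1 library per stage the stages stand in for replicates, so a spread within a side holds developmental change as well as error.

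The libraries differed in composition before any comparison. Spike-in RNAs, synthetic transcripts added to each sample, made up 8.34%, 9.16% and 7.45% of the TPM at stages 6.5, 7 and 8, against 11.2% at stage 0 and 4.44% at stage 2. A pair of models that is on in some libraries and listed at 0 in their neighbours held 21.0% of the TPM at stage 2, while the other 4 of the libraries compared list it at 0. The pair and the spike-ins were dropped and each library was rescaled to 1000000. After this, 14196, 14187 and 14335 models stood at 5 TPM or more at stages 6.5, 7 and 8, against 11011 at stage 0 and 13705 at stage 2. Spearman's rho across the tested models, a description only, was 0.966 to 0.970 among the late cleavage libraries, 0.909 to 0.936 between each of them and stage 2, 0.761 to 0.803 between each of them and stage 0, and 0.908 between stages 2 and 0. The median SD of a model on the log2(TPM + 1) scale was 0.16 over the 3 late cleavage libraries and 0.51 over stages 0 and 2. For 37 well measured spike-ins (10 TPM or more on average, never listed at 0), taken as shares of their own total, it was 0.13 and 0.12. Stage 0 is the one column of the 5 with the suffix rr in its name, whose meaning is not given.

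More of the tested models were higher in late cleavage than lower. The 4285 higher models were 29.5% of those tested and the 376 lower models were 2.59%. Non-overlap of the libraries alone, with no minimum difference, held for 6856 models in the higher direction (47.2%) and 2729 in the lower (18.8%). Among the higher models the median difference was 1.44 on the log2(TPM + 1) scale, with 463 models at 2 or more and 17 at 3 or more. The lower models had a median difference of -1.30, with 62 past 2 and 18 past 3. Of the 37 spike-ins 0 met the rule, although 17 did not overlap between the sides, 15 of them lower in late cleavage and 2 higher. Their differences had a median of -0.22, an SD of 0.31 and a range from -0.62 to 0.77. Under the filter used for the models there were 45 spike-ins, of which 0 met the rule either; their SD was 0.53 and their lowest difference -3.08. The spread of the spike-ins covers library preparation and sequencing of well measured RNAs, and can understate the error of models near 0. It also holds any difference between the sides in how the columns were handled.

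**Figure D1:**
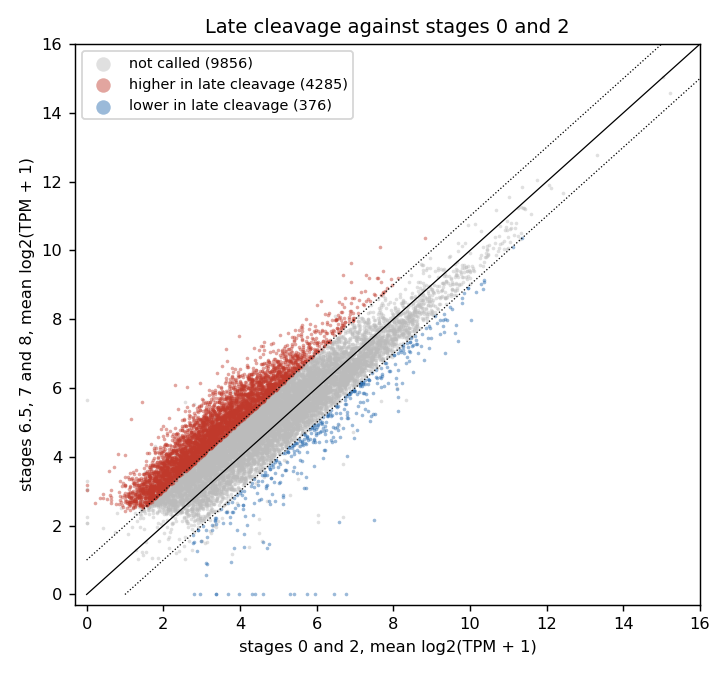
Mean log2(TPM + 1) at stages 6.5, 7 and 8 (vertical axis) against stages 0 and 2 (horizontal axis) for 14517 gene models, 1 point each. The solid line marks equal levels and the dotted lines a difference of 1; the 4285 higher models lie above the upper dotted line and the 376 lower models below the lower one, and points between or past the lines that overlap between the sides are grey.

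The balance of the directions depended on the scaling. The median difference over all tested models was 0.52, so the typical model was itself higher in late cleavage after rescaling to a fixed total. With median-of-ratios scaling, which sets the typical model to no change, 1924 models were higher (13.3%) and 1885 lower (13.0%). All 1924 were among the 4285, and all 376 lower models were among the 1885; median-of-ratios scaling shifts differences down, so both follow from the shift itself. Of the 376 lower models 230 were called lower on TPM as deposited, and 363 with libraries scaled to the spike-ins. Thus 2361 models were called higher by the fixed total and not by the median, and 1509 were called lower by the median and not by the fixed total. With spike-in scaling the counts were 1881 higher and 428 lower. Gene-model TPM per spike-in TPM was taken without the dropped pair of models, which held 21.0% of the stage 2 column. It was 11.0, 9.92 and 12.4 at stages 6.5, 7 and 8, against 7.91 at stage 0 and 16.8 at stage 2. The late cleavage libraries lay between those of stages 0 and 2, and the mean log2 ratio differed by -0.06 (exact permutation test over 5 libraries, two-sided, p = 0.9, smallest possible 0.1). This difference has no settled sign: it was -0.60 without stage 0 and 0.48 without stage 2. The late cleavage columns sum to 1008502, 1010294 and 1008578 as deposited, and those of stages 0 and 2 to 1000000, so the handling of the columns differs between the sides; with the excess taken off the spike-in total the difference in the ratio was 0.11, and 266 of the 376 lower models were still called lower.

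Direction followed abundance. Models were sorted by their mean TPM over the 5 libraries, the same libraries that set the calls, so these shares are a description. Of the 2813 tested models under 10 TPM, 36.7% were higher in late cleavage and 1.81% lower. Of the 1587 models from 100 to 300 TPM, 11.5% were higher and 4.47% lower. Of the 421 models at 300 TPM or more, 5.70% were higher and 8.08% lower. The median difference ran from 0.82 in the lowest class through 0.72, 0.41 and -0.14 to -0.35 in the highest. Under median-of-ratios scaling the same order held: 17.3% of the lowest class were higher and 5.76% lower, while of the highest class 2.85% were higher and 40.4% lower. The highest class held 34.2%, 32.9% and 31.6% of the gene-model TPM at stages 6.5, 7 and 8, against 45% at stage 0 and 36.7% at stage 2. The 500 most abundant models of each library, chosen in that library, held 36.8%, 35.7% and 34.4% of its TPM in late cleavage, against 49.4% at stage 0 and 39.2% at stage 2. The poly(A)+ RNA of late cleavage was thus spread more evenly over the models than that of stage 0. Stage 2 lay between, with the dropped pair of models left out. That pair held 21.0% of the TPM at stage 2 as deposited, so the place of stage 2 rests on leaving it out.

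**Figure D2:**
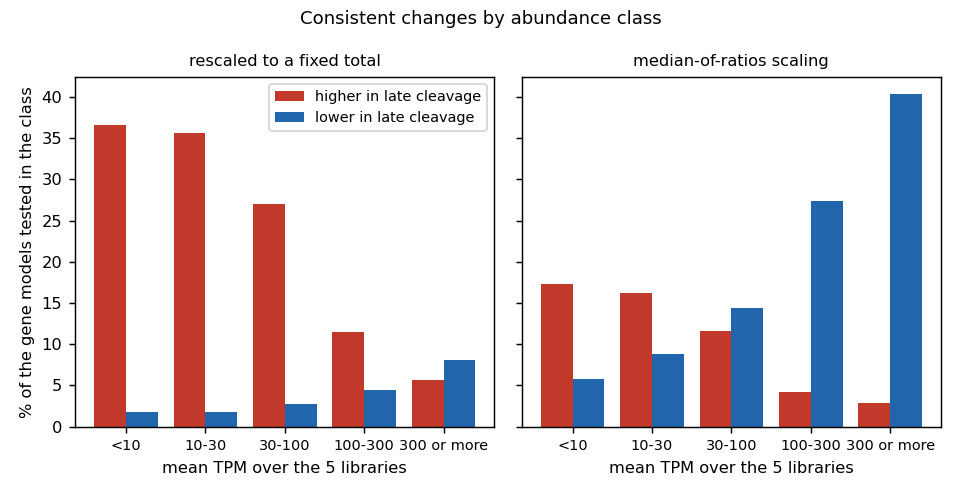
Percentage of tested gene models called higher (red) or lower (blue) in late cleavage, by mean TPM over the 5 libraries, with rescaling to a fixed total (left) and with median-of-ratios scaling (right). In both panels the red bars shrink and the blue bars grow toward abundant models: in the class of 300 TPM or more, 8.08% are lower by the fixed total and 40.4% by median-of-ratios scaling.

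Most of the higher models were registered at stage 0, at lower levels than the tested models as a whole. The rule used stage 0, so a lower level there follows in part from the choice, and the shares below are a description. Models low at stage 0 could pass the filter through the late cleavage libraries alone. At stage 0, 3970 of the 4285 (92.6%) had at least 1 TPM, against 97.1% of all tested models, and 1992 (46.5%) had at least 5 TPM, against 75.2%. At both stages 0 and 2, 2 of the higher models (0.047%) were listed at 0, a share near the 0.062% of all tested models, and 11 were under 1 TPM. Their median level was 24.5, 26.8 and 28.6 TPM at stages 6.5, 7 and 8, against 4.53 TPM at stage 0 and 14.9 TPM at stage 2. Together they held 17.5%, 19.7% and 20.3% of the gene-model TPM in late cleavage, against 3.91% at stage 0 and 11.1% at stage 2.

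Most of the lower models declined in level without dropping out. The rule used the late cleavage libraries, so the shares below are a description too. In all 3 late cleavage libraries 348 of the 376 (92.6%) stayed above 0, against 99.0% of all tested models, and 303 (80.6%) stayed at 5 TPM or more, against 93.7%. Their median level was 28.2, 24.6 and 22.4 TPM at stages 6.5, 7 and 8, against 88.3 TPM at stage 0 and 58.9 TPM at stage 2. Their share of the gene-model TPM was 2.96%, 2.33% and 2.32% in late cleavage, against 8.11% at stage 0 and 5.17% at stage 2. A further 15 were listed at 0 in all 3 late cleavage libraries, and these include the largest differences. Of the 15, 7 were above 0 at stage 6 and 13 in some library after stage 8. Whether a listed 0 means that the RNA was gone was not tested. Xenopus laevis carries many genes as pairs of similar copies, and how reads were shared between such copies cannot be read from the table.

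**Figure D3:**
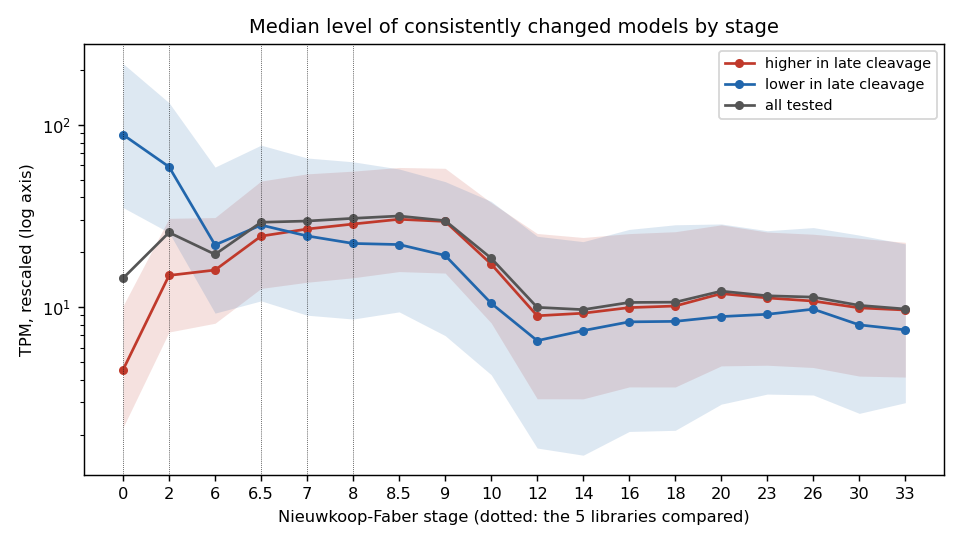
Median TPM (log axis) of the 4285 higher, the 376 lower and all 14517 tested models in each of the 18 libraries, in stage order, with bands from the lower to the upper quartile for the higher and lower models. The higher models stand at 28.6 TPM at stage 8, against 4.53 TPM at stage 0, the lower models at 22.4 TPM at stage 8, against 88.3 TPM at stage 0, and from stage 12 on all 3 lines lie within 6.55 to 12.2 TPM.

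The test across all models called few of them with the fixed total, and many under some other scalings and fits. With limma on log2(TPM + 1), two-sided with Benjamini-Hochberg adjustment over 14517 models, 1 model was higher (0.00689%) and 7 were lower (0.0482%) at an adjusted p under 0.05. At an unadjusted p under 0.05 there were 5892, of which 4544 were higher and 1348 lower. All 8 called models also met the consistent-change rule, which uses the same 5 libraries, so this is no separate support. It called 5096 higher and 269 lower on TPM as deposited, 1746 and 1817 with quantile normalization, and 3910 and 516 with period means over all 18 libraries. The fit has 3 residual degrees of freedom, and the number of calls changed with single libraries. Without stage 0 it called 1358 higher and 296 lower, and without stage 2 it called 8230 higher and 2046 lower, with the lone remaining early library assumed to vary like the others. Consistent change followed the same libraries: 1125 higher and 285 lower without stage 0, and 6726 higher and 754 lower without stage 2.

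XeXenL6RMv10039766m, the model called higher, was singled out after its values were seen. It stood at 135, 171 and 186 TPM at stages 6.5, 7 and 8, against 19.6 TPM at stage 0 and 28.1 TPM at stage 2. The sides are well apart, with little spread within each, and the difference was 2.74 ± 0.25 (SE, log2 scale; limma adjusted p = 0.0351). It was higher in each of 20 alternatives, by 2.19 to 2.99. Its sides do not overlap, so another filter or the omission of 1 library could not reverse it, and the direction is no support. The call was lost in 8 of the alternatives, among them the omission of any 1 late cleavage library (limma adjusted p up to 0.247, without stage 7). At stage 6, which the comparison does not use, it was at 78.5 TPM, between the sides. It went on to 252 TPM at stage 9 and was back at 35.2 TPM at stage 14. The 7 models called lower were each listed at 0 in all 3 late cleavage libraries. In the limma fit 3 identical zeros leave no spread on that side. Each was lower in all 19 alternatives that held it, and each lost its call in 4 to 6 of them. With a 0 in every late cleavage library the direction was all but fixed by the choice, so its persistence is no support.

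Zeros in other libraries were frequent among the largest consistent differences in the lower direction. Of the 18 lower models past 3, 17 were listed at 0 in at least 1 of the 13 libraries outside the comparison, and of the 17 higher models 6 were, against 7.99% of all tested models. XeXenL6RMv10024093m stood at 34.1, 83.9 and 35.9 TPM at stages 6.5, 7 and 8, against 6.35 TPM at stage 0 and 0 at stage 2, a difference of 4.14 ± 0.86 (SE) that did not pass (limma adjusted p = 0.082). Stages 6 and 8.5 to 18 list it at 0, and stage 20 has 66.7 TPM; without stage 2 its difference was 2.70. XeXenL6RMv10029453m had 30.5, 31.2 and 37.8 TPM in late cleavage, against 4.01 TPM at stage 0 and 0 at stage 2 (difference 3.93 ± 0.67, limma adjusted p = 0.082). This model was steadier, at 18.0 TPM at stage 6 and 29.5 and 32.1 TPM at stages 8.5 and 9. XeXenL6RMv10039699m was listed at 0 at stages 6.5, 7 and 8, against 129 TPM at stage 0 and 91.0 TPM at stage 2 (limma adjusted p = 0.00911). It was still at 99.8 TPM at stage 6, before the 3 zeros, and was back at 59.2 TPM at stage 8.5, after them. XeXenL6RMv10000632m was also listed at 0 in late cleavage, against 119 TPM at stage 0 and 63.1 TPM at stage 2 (limma adjusted p = 0.0147). It stayed at 0 up to stage 20 and was at 113 TPM at stage 23.

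For most of the higher models the greater part of the difference was in place by the 2-cell stage, as rescaled to a fixed total. Stage 2 lay above stage 0 in 4207 of the 4285 (98.2%), against 76.2% of all tested models, and with median-of-ratios scaling in 91.2%, against 47.7%; the rule used both libraries, so this is a description. The share of the log2 change from stage 0 to the late cleavage mean that was reached at stage 2 had a median of 64.9% (quartiles 53% and 75%), and 3413 models (79.6%) were nearer at stage 2 to late cleavage than to stage 0. For the lower models the median was 31.1% (quartiles 16.9% and 46.2%), and 71 of 376 (18.9%) were nearer to late cleavage. The rule bounds these shares, because stage 2 has to lie short of late cleavage. This difference in timing depended on the scaling: with median-of-ratios scaling the same models had medians of 56.4% for the higher and 50.2% for the lower. The typical tested model itself moved by 0.66 from stage 0 to stage 2 by the fixed total and by -0.05 by the median. By the fixed total, the median log2 level of all tested models lay 0.79 above stage 0 at stage 2. It lay 0.97, 0.99 and 1.04 above stage 0 at stages 6.5, 7 and 8. An early shift was thus not particular to the higher models. The share reached at stage 2 was not counted over all tested models.

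**Figure D4:**
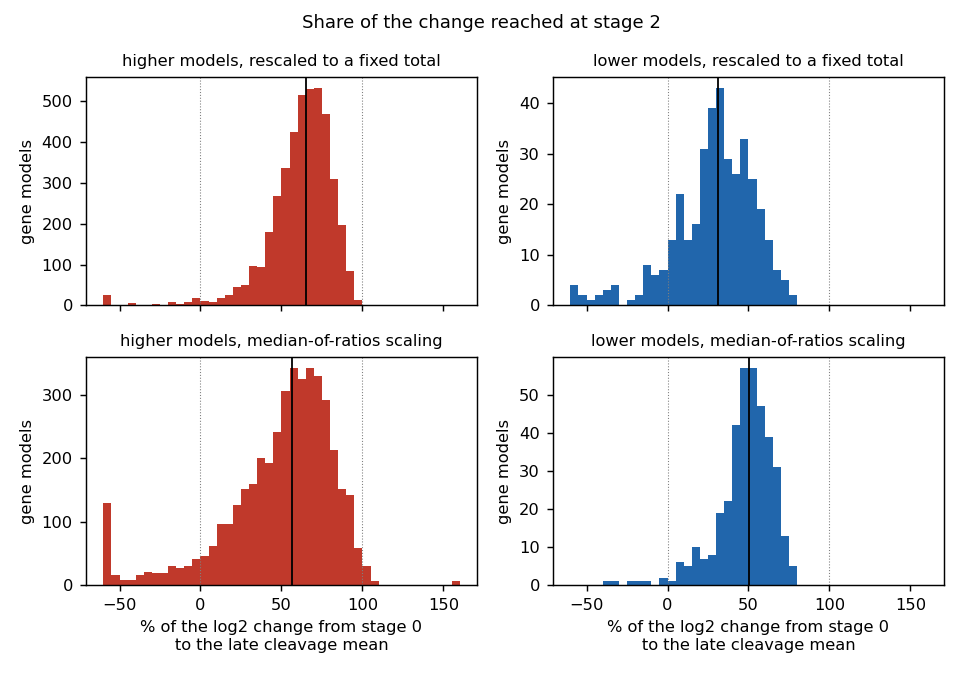
Share of the log2 change from stage 0 to the late cleavage mean that each consistently changed model had reached at stage 2, with rescaling to a fixed total (top) and median-of-ratios scaling (bottom); values past the ends are drawn in the end bars and black lines mark medians. By the fixed total the medians are 64.9% for higher and 31.1% for lower models, while by median-of-ratios scaling they are 56.4% and 50.2%.

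Among the models nearer at stage 2 to late cleavage than to stage 0, by the fixed total, 4 are shown. This set adjoins the one nearer to stage 0, so models with similar courses can fall on either side. With median-of-ratios scaling 59.4% of the higher and 51.1% of the lower models were nearer to late cleavage. XeXenL6RMv10000405m had 123, 272 and 175 TPM at stages 6.5, 7 and 8, against 5.53 TPM at stage 0 and 36.4 TPM at stage 2 (difference 3.54 ± 0.72, limma adjusted p = 0.082). It peaked at stage 7 and was at 14.2 TPM at stage 10. XeXenL6RMv10007364m had 46.6, 72.0 and 80.0 TPM in late cleavage, against 1.19 TPM at stage 0 and 16.1 TPM at stage 2 (difference 3.42 ± 0.82, limma adjusted p = 0.082). Its level lasted, between 39.3 and 79.5 TPM in each library from stage 8.5 on. Among the lower models XeXenL6RMv10014352m had 157, 129 and 105 TPM in late cleavage, against 1128 TPM at stage 0 and 372 TPM at stage 2 (difference -2.32 ± 0.46, limma adjusted p = 0.082). It went down further, to 12.5 TPM at stage 10, and had 337 TPM at stage 14. XeXenL6RMv10016710m had 67.3, 61.0 and 58.8 TPM in late cleavage, against 452 TPM at stage 0 and 166 TPM at stage 2 (difference -2.12 ± 0.40, limma adjusted p = 0.082). Stage 2 stood between stage 0 and late cleavage in all 4, which the rule and the choice of this set require. Without stage 0 the differences of the 4 models, in the order given, were 2.28, 1.93, -1.52 and -1.40.

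At stage 2, 872 of the higher models (20.4%) and 305 of the lower (81.1%) were still nearer to stage 0 than to late cleavage, by the fixed total. XeXenL6RMv10003491m had 109, 179 and 138 TPM at stages 6.5, 7 and 8, against 5.08 TPM at stage 0 and 24.4 TPM at stage 2 (difference 3.49 ± 0.59, limma adjusted p = 0.082). It was at 34.4 TPM at stage 6, near stage 2, and was down at 5.93 TPM at stage 16 before standing at 168 TPM at stage 30. XeXenL6RMv10031041m had 62.0, 73.3 and 64.4 TPM in late cleavage, against 23.7 TPM at stage 0 and 0 at stage 2 (difference 3.76 ± 1.20, limma adjusted p = 0.089). Stages 8.5 and 16 list it at 0 again, and without stage 2 its difference was 1.45. XeXenL6RMv10042500m was listed at 0 in all 3 late cleavage libraries, against 44.5 TPM at stage 0 and 83.7 TPM at stage 2 (limma adjusted p = 0.0168). XeXenL6RMv10047526m was likewise listed at 0, against 22.2 TPM at stage 0 and 126 TPM at stage 2 (limma adjusted p = 0.0799). Both were listed at 0 in each library from stage 6 to stage 18.

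Stage 6, which the rule does not use, falls between the sides in time. It is placed here against libraries that the rule did use. A gap between the chosen models and all tested models thus follows in part from the choice, and the shares are a description. Of the 376 lower models 358 (95.2%) lay below both stages 0 and 2 at stage 6, against 41.6% of all tested models. At or below the highest late cleavage library lay 323 (85.9%), against 97.4% of all tested models. With median-of-ratios scaling these last shares were 43.4% and 66.3%. Of the 4285 higher models 2298 (53.6%) lay above both stages 0 and 2, against 21.4% of all tested models. At or above the lowest late cleavage library lay 321 of them (7.491%), against 14.955% of all tested models. For the same models these last shares were 54.2% and 67.6% with median-of-ratios scaling. The median level of the higher models at stage 6 was 16.0 TPM, close to the 14.9 TPM of stage 2. The stage 6 library has an unusual composition: XeXenL6RMv10008034m stood at 204991 TPM and XeXenL6RMv10023271m at 172827 TPM there. In the 5 libraries compared they stood at no more than 41016 and 40321 TPM. After rescaling also without the 4 models that reached 10000 TPM in any library up to stage 8, 92.4% of the 4183 models then called higher lay above both stages 0 and 2 at stage 6, against 55.5% of all tested models. The median of the higher models was then 16.3 TPM at stage 2, 26.4 TPM at stage 6 and 26.8 TPM at stage 6.5. With median-of-ratios scaling 93.1% of the 1924 models called higher lay above both, against 39.4% of all tested models. Of the lower models 88.9% lay below both stages 0 and 2 when called and placed without the 4 abundant models, against 23.6% of all tested models, and 90.5% with median-of-ratios scaling, against 40.5%.

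Within late cleavage the levels changed little. The median step of the higher models was 0.13 from stage 6.5 to stage 7 and 0.07 from stage 7 to stage 8 on the log2 scale, against 1.39 from stage 0 to stage 2. The lower models stepped by -0.21 and -0.04 within late cleavage. Over all tested models these steps were 0.016 and 0.041, against 0.662 from stage 0 to stage 2. In strict stage order over the 5 libraries, 1521 higher models (35.5%) went up at each step. Of the lower models 130 (34.6%) went down at each step. The rule already sets each late cleavage library past both stages 0 and 2, so only the order within a side was free. The share over all tested models was not counted. From stage 8 to stage 8.5 the median step was 0.08 for the higher and -0.14 for the lower models, against 0.025 over all tested models. The same rule applied to stages 8.5 and 9 against late cleavage called 157 models higher (1.06%) and 135 lower (0.915%) of 14750. The late cleavage libraries are shared by these comparisons, so the counts are set side by side and not tested. Of the 4285 higher models 16 were called higher again in that interval and 26 lower. Of the 376 lower models 11 were called higher and 31 lower. Both sets were chosen by their late cleavage levels, which this interval uses again, so the counts of their members are a description.

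In the blastula libraries most models of both sets kept their positions relative to stages 0 and 2. The levels at stages 0 and 2 are those that chose the models, so the gaps to all tested models follow in part from the choice. The shares in this paragraph are a description. At stages 8.5 and 9, 4098 of the 4285 higher models (95.6%) were above both stages 0 and 2, against 51.3% of all tested models, and 355 of the 376 lower models (94.4%) were below both, against 22.9%. At stages 10 and 12, 1321 higher models (30.8%) were still above both, against 16.4% of all tested models. In all 4 neurula libraries 1270 (29.6%) were above both stages 0 and 2 and 755 (17.6%) below both, while over all tested models the shares were 19.0% and 48.8%. Of the lower models 331 (88.0%) were below both stages 0 and 2 in the neurula and 14 (3.72%) above both. These later shares move with the scaling: with median-of-ratios scaling 55.7% of the higher models were above both stages 0 and 2 in the neurula, against 36.1% of all tested models. For the lower models 68.9% were then below both, against 34.4%.

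Larger neurula levels were about as frequent among the higher models as among all tested models. In 499 of the higher models (11.6%) each neurula library lay above each late cleavage library, against 13.1% of all tested models. With median-of-ratios scaling the shares were 37.4% and 36.7%. The rule chose the higher models for high late cleavage levels, which makes a still larger neurula level harder to reach. These shares are a description. XeXenL6RMv10003111m had 15, 15.3 and 17.4 TPM at stages 6.5, 7 and 8, against 2.12 TPM at stage 0 and 0 at stage 2 (difference 3.26 ± 0.53, limma adjusted p = 0.082). It was lower in the blastula, at 7.60 and 7.80 TPM, and between 24.3 and 47.3 TPM in the neurula. XeXenL6RMv10052807m had 28.9, 24.6 and 16.8 TPM in late cleavage, against 4.53 TPM at stage 0 and 1.41 TPM at stage 2 (difference 2.71 ± 0.47, limma adjusted p = 0.082). Its level declined within late cleavage and reached 146 TPM at stage 26. Among the 755 that lay below both stages 0 and 2 in the neurula, XeXenL6RMv10015421m had 135, 148 and 144 TPM in late cleavage, against 5.09 TPM at stage 0 and 67.8 TPM at stage 2 (difference 2.80 ± 0.91, limma adjusted p = 0.0892). Its difference was 1.06 without stage 0 and 4.55 without stage 2. Stage 10 had 23.8 TPM and stage 12 had 0.71 TPM. XeXenL6RMv10013841m had 36.6, 43.1 and 48.6 TPM in late cleavage, against 3.20 TPM at stage 0 and 8.10 TPM at stage 2 (difference 2.82 ± 0.40, limma adjusted p = 0.082). It was at 31.8 TPM at stage 6 and at 3.98 TPM at stage 12. High levels of these 2 models were confined, among the 18 libraries, to the stages from 2 or 6 up to 10.

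A further decline by the neurula was no more frequent among the lower models than among all tested models. In 230 of the 376 (61.2%) each neurula library lay below each late cleavage library, against 69.6% of all tested models. With median-of-ratios scaling the shares were 33.2% and 36.8%. The rule chose these models for low late cleavage levels, which leaves less room for a further decline. A model listed at 0 in a late cleavage library could not count. Above 0 in all 3 were 92.6% of the lower models, against 99.0% of all tested models, so the shares are a description. XeXenL6RMv10048085m had 10.4, 6.30 and 6.57 TPM at stages 6.5, 7 and 8, against 65.2 TPM at stage 0 and 38.6 TPM at stage 2 (difference -2.58 ± 0.38, limma adjusted p = 0.082). From stage 12 on it was at 4.99 TPM or less. XeXenL6RMv10031642m had 0.97, 2.54 and 1.33 TPM in late cleavage, against 11.3 TPM at stage 0 and 15.7 TPM at stage 2 (difference -2.50 ± 0.42, limma adjusted p = 0.082). Among the 14 models above both stages 0 and 2 in the neurula, XeXenL6RMv10030629m had 57.1, 39.8 and 19.9 TPM in late cleavage, against 284 TPM at stage 0 and 103 TPM at stage 2 (difference -2.23 ± 0.56, limma adjusted p = 0.082). Its lowest level was 10.6 TPM, at stage 8.5, followed by 245 TPM at stage 10; stage 14 had 2508 TPM. XeXenL6RMv10040314m had 9.24, 4.55 and 5.38 TPM in late cleavage, against 37.7 TPM at stage 0 and 29.9 TPM at stage 2 (difference -2.28 ± 0.38, limma adjusted p = 0.082). It was at 73.6 TPM at stage 10 and 136 TPM at stage 12. Both returning models were at their lowest at stages 7 to 8.5 and had passed their stage 2 level by stage 10.

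**Figure D5:**
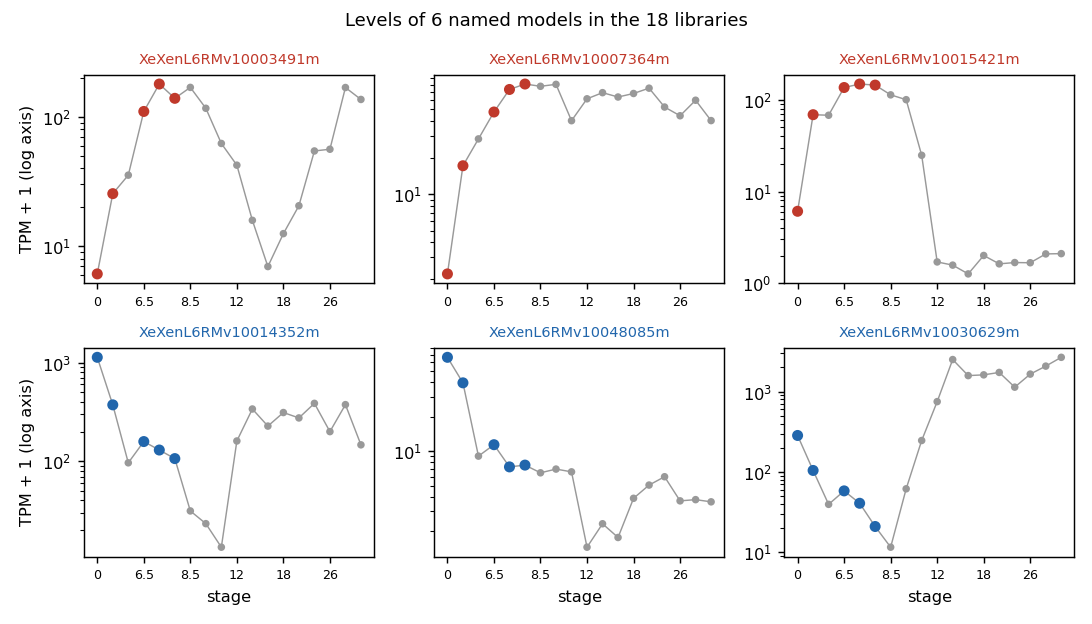
TPM + 1 (log axes, each panel with its own range) of 6 named models in the 18 libraries in stage order; large coloured points are the 5 libraries compared (red, higher in late cleavage; blue, lower) and small grey points the other 13. XeXenL6RMv10007364m keeps its level after stage 8, XeXenL6RMv10015421m is at 0.71 TPM by stage 12, and XeXenL6RMv10030629m returns to 2508 TPM at stage 14.

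The minimum difference of 1 cuts through a continuous range. The higher model just inside it had 16.2, 22.0 and 26.9 TPM in late cleavage, against 9.05 TPM at stage 0 and 11.3 TPM at stage 2. The one just outside had 43.2, 41.7 and 42.8 TPM, against 16.8 and 25.7 TPM. On the lower side the model just inside had 159, 152 and 142 TPM, against 440 and 208 TPM, and the one just outside 32.8, 27.6 and 20.6 TPM, against 70.3 and 41.5 TPM. Between differences of 1.0 and 1.1 lay 512 higher and 98 lower models, and between 0.9 and 1.0 lay 492 and 124 non-overlapping models that were not counted.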

How the data were processed

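Whole Xenopus laevis embryos (J strain) were sampled at 18 stages, 1 library each. Per the labels' protocols, RNA was extracted with TRIzol, selected for poly(A) with Dynabeads and carried through a ScriptSeq library kit with 10 amplification cycles. The authors deposited TPM for 31357 gene models and 88 ERCC spike-ins. Per the submitters' processing notes the tools were RSEM, Bowtie, Trimmomatic and CASAVA 1.8.2; what each did is not given, nor is a genome build given in the sources used here. TPM keeps no depth, so depth is unknown and no counting interval is given. All columns were matched to a library by stage.

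Spike-ins and 2 on/off models (XeXenL6RMv10031603m and XeXenL6RMv10023270m) were dropped and each column was rescaled to 1000000. Models with 5 TPM or more in 2 or more of the 5 libraries were tested on log2(TPM + 1), a scale that understates changes of low models, with limma 3.58.1 (R 4.3.3) using a mean-variance trend, adjusted over 14517 models. Models were named by the largest difference, at most 2 per direction and comparison, with at least 10 TPM in each library of the higher side; comparisons were the main one and the sets nearer at stage 2 to late cleavage or to stage 0, and the sets past late cleavage or past stages 0 and 2 in the neurula. The comparison, its members and these sets were chosen with earlier results of these data known. Alternatives were other scalings, pseudocounts of 0.1 and 5, filters of 1 and 10 TPM and none, stage 6 added, each library left out, and a fit of all 18 libraries.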

Additional observations from a re-analysis of the deposited data

Results flagged for a closer look

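The 2 models left out before rescaling carried a signal outside the comparison. Both were listed at 0 at stages 6.5, 7 and 8, and also at stage 0, while XeXenL6RMv10031603m stood at 207302 TPM and XeXenL6RMv10023270m at 2274 TPM at stage 2, as deposited. They were also on at stage 6, where they held 42.7% of the TPM. They are given because 1 of the 5 libraries compared carries them; their part in the results was not tested beyond the scalings with and without them.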

How the results depend on the processing

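Counts are given as higher and lower in late cleavage, beside the 4285 and 376 consistent changes and the limma calls of 1 and 7. Consistent changes numbered 1924 and 1885 with median-of-ratios scaling, 1647 and 1508 with quantile normalization, 1881 and 428 with spike-in scaling, and 2804 and 268 with the spike-in total reduced by the excess of the column over 1000000, an alternative chosen after seeing the data. They were 5364 and 230 on TPM as deposited, 2563 and 271 with a pseudocount of 5, and 2151 and 487 with stage 6 added. With a pseudocount of 0.1, filters of 1 and 10 TPM, no filter, no zero allowed, or the 4 most abundant models left out, the last 2 chosen after seeing the data, both counts stayed within 1.5 times. Leaving out 1 library gave 1125 to 6726 higher and 285 to 754 lower, with both extremes set by stages 0 and 2. The limma calls were 5096 and 269 as deposited, 2 and 13 with median-of-ratios, 1746 and 1817 with quantile normalization, 51 and 47 with spike-in scaling and 89 and 37 with the reduced spike-in total. They were 4 and 14 with a pseudocount of 5, 2 and 13 with a filter of 1 TPM, 0 and 2 with one of 10 TPM, 0 and 12 with no filter, 3 and 12 with no trend, 11 and 39 with stage 6 added, and 3910 and 516 with period means over all 18 libraries. With a pseudocount of 0.1 limma called 0 and 0 (5692 at an unadjusted p under 0.05), and without models that have a zero 0 and 0 (6021 at an unadjusted p under 0.05). Leaving out 1 library gave limma 0 to 8230 higher and 0 to 2046 lower calls, with 2919 at an unadjusted p under 0.05 without stage 7, where both were 0. The cause of these shifts was not tested.

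At stage 6, 2298 higher and 358 lower models lay past both stages 0 and 2. The counts were 848 and 222 as deposited, 1792 and 1705 with median-of-ratios scaling and 3863 and 360 without the 4 most abundant models; leaving out 1 library gave 951 to 6543 and 273 to 742. The mean log2 difference in gene-model TPM per spike-in TPM, taken without the on/off models, was -0.06. It was 0.1065 with the reduced spike-in total and -0.603 to 0.4835 with 1 library left out, so it has no settled sign. The 20 named models kept their direction in each alternative that held them. They were chosen for sides that do not overlap, so another filter or the omission of 1 library could not reverse them. With stage 6 added, 3 of them (XeXenL6RMv10024093m, XeXenL6RMv10039699m and XeXenL6RMv10015421m) did not meet the rule. No paired analysis was possible because each stage has 1 library and the labels carry no replicate numbers.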

Other observations

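How evenly poly(A)+ RNA was spread over the gene models changed again after the stages compared. The shares of the most abundant models given here leave out the on/off models. As deposited, those held 19.0% of the TPM at stage 8.5 and were listed at 0 at stages 8 and 9. The 500 most abundant models of each library held 34.4% of the gene-model TPM at stage 8.5 and 35.2% at stage 9, close to the 34.4% of stage 8. They held 48.8% at stage 10 and 57.1% at stage 12, and between 53.1% and 58.8% in each later library. The 5 most abundant models held 39.99% at stage 6 and 19.1% at stage 10, against at most 9.39% in each of the other libraries up to stage 9. The largest shares of the on/off models, 42.7% and 36.8%, were also found at stages 6 and 10.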
